A study of Mus musculus with 33 samples.

Results

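A set of 6 enzymes that make or break down steroid hormones and prostaglandins was followed in the mouse uterus across 7 groups: Cyp11a1, Cyp17a1, Hsd17b1, Hsd11b1, Akr1c18 and Ptges. They were taken as every array probe annotated to one of these 6 symbols, which gave 9 probes of the 45281 on the array and 6 of the 10412 genes tested. All 9 probes passed the filter on dim signal. Hsd11b1 had 3 probes, Ptges had 2 and the other genes had 1 each, and the probe with the highest mean stands for a gene unless another is named.

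RNA from 8-week-old C57BL/6 mice, with no other genotype or treatment named, was read on 33 Illumina bead arrays, 1 sample to an array. Non-pregnant uterus gave 6 arrays, and tissue called uterine microenvironment gave 4 arrays at day 4 after fertilization, 6 at day 6, 4 at day 8, 4 at day 10, 4 at day 11 and 5 at day 12. Neither the tissue layers dissected nor the animal behind an array is named in the labels. The p-values therefore reflect the spread among these arrays, which may be technical, and the number of arrays limits the precision.

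Steroid hormones are made from cholesterol in a chain of enzymes. Cyp11a1 cuts the cholesterol side chain in mitochondria to give pregnenolone, Cyp17a1 turns pregnenolone or progesterone towards androgens, and Hsd17b1 converts weak to strong sex steroids, such as oestrone to oestradiol. Hsd11b1 regenerates active glucocorticoid from its inert keto form, and Akr1c18 reduces progesterone to a metabolite with little activity. Ptges, the inducible prostaglandin E synthase, makes prostaglandin E2 from the product of the cyclooxygenases. In rodent pregnancy, progesterone from the ovary keeps the uterus receptive and the stroma decidualizes around the embryo, after which trophoblast giant cells of the placenta also make steroids.

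Values are log2 normalized intensities, each with 1 array as the unit. A probe was detected on an array at detection p under 0.01, and "rose", "fell" or "changed" is used of a gene only at a 2-fold or larger difference with an adjusted p below 0.05 (limma's moderated test, Benjamini-Hochberg over 10412 genes). For a gene seen on none of a group's arrays the fold is a bound ("at least"), set against the lowest signal among detected probes there, which ran from 4.97 to 6.03. Arrays detected 13097 to 18692 probes, the lowest being non-pregnant replicate 4 and day 6 replicate 4 (13149). The tissue carried uterine markers throughout: the summed level of 8 of 8 smooth muscle genes was 29473 to 44214 at day 12 and 70160 to 125371 in non-pregnant uterus. The decidual hormone Prl8a2 was detected on every array from day 6 and on none of day 4 and non-pregnant uterus. Of 6 erythroid genes 5 were measured, summing to 45296 to 60250 at day 10 and 114 to 144 in non-pregnant uterus.

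The 6 enzymes came on at different days. At day 4 none was changed from non-pregnant uterus, at day 6 3 rose (Cyp11a1, Hsd17b1 and Ptges), and at day 8 5 rose. At day 10 all 6 rose, at day 11 5 rose, and at day 12 4 rose and 1 (Hsd17b1) fell. That fall rests on fitted values of arrays that did not detect Hsd17b1, and its bound is under 2-fold. Over all 10412 genes, 1.42% rose and 1.23% fell at day 4, 6.53% rose and 6.31% fell at day 6, and 10.8% rose and 11.2% fell at day 8. At day 10, 12.4% rose and 11.8% fell, at day 11 13.8% rose and 13.5% fell, and at day 12 14.1% rose and 14.0% fell. The members' median log2 difference from non-pregnant uterus was -0.35 at day 4, 1.25 at day 6, 3.48 at day 8, 3.95 at day 10, 3.04 at day 11 and 2.81 at day 12. With bounds in place of fitted values for undetected groups, it was 3.46 at day 8, 3.90 at day 10, 3.03 at day 11 and 2.43 at day 12. The median over all genes stayed between -0.018 and 0.039. These are RNA levels of whole tissue, in which fewer cells of a type and less RNA per cell cannot be told apart.

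**Figure D1:**
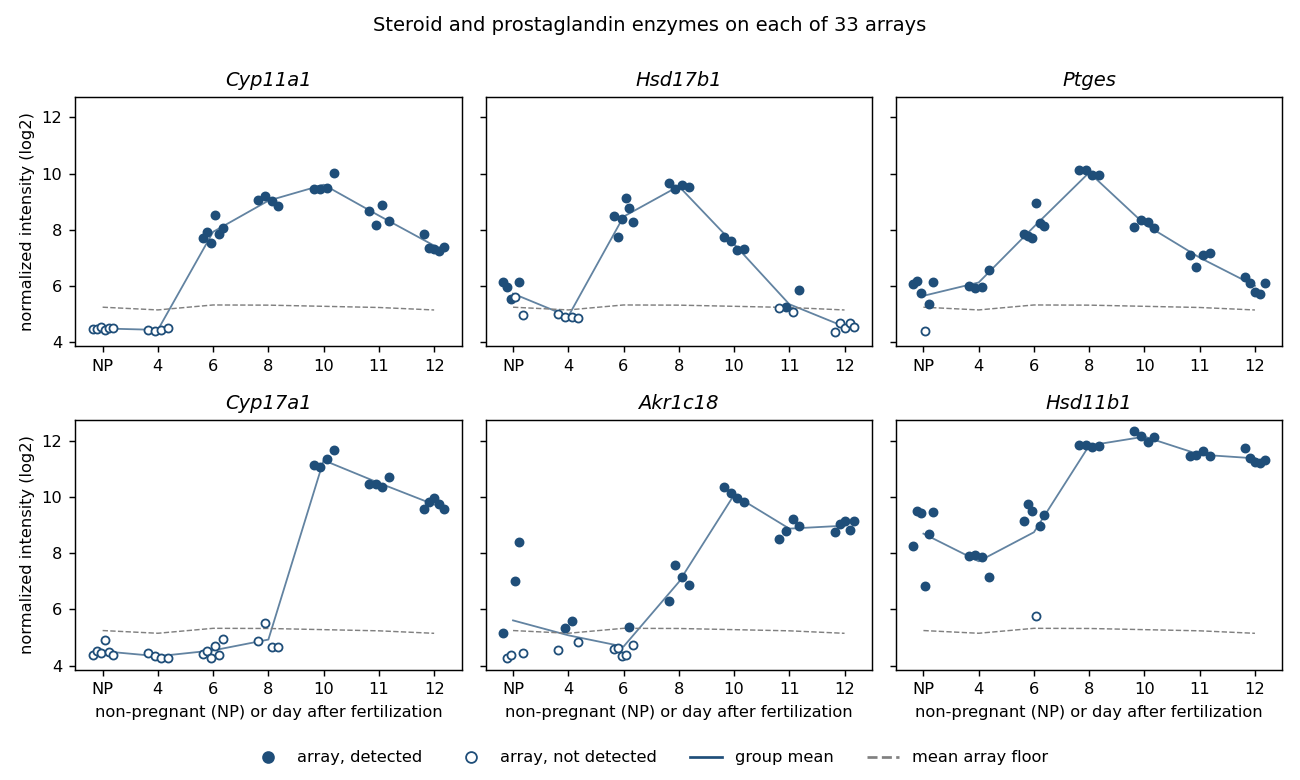
Normalized intensity (log2) of each of the 6 enzymes on each of 33 arrays, by group from non-pregnant (NP) to day 12. Filled points are arrays that detected the probe, open points arrays that did not, lines join group means and the dashed line is the mean over a group's arrays of the lowest detected signal. Cyp17a1 has open points up to day 8 and filled points near 10 to 12 from day 10 on.

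By the moderated F test over the 7 groups every one of the 6 enzymes passed, as did 80.2% of all genes. Cyp17a1 ranked 19 of 10412 by its F value (795), Cyp11a1 ranked 81, Hsd17b1 172, Ptges 438, Akr1c18 1075 and Hsd11b1 1592. The range between the highest and the lowest group mean was 6.97 for Cyp17a1 and 4.38 for Ptges, and lay between these values for the other 4.

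Cyp11a1, which starts all steroid synthesis, was undetected in non-pregnant uterus and at day 4 and present at every later day, with the highest mean at day 10. In non-pregnant uterus its log2 intensity had a lowest value of 4.43, a median of 4.50 and a highest of 4.56. Day 4 arrays read 4.43, 4.40, 4.43 and 4.51. None of these arrays detected it, and every later array did. Day 6 ran from 7.54 through a median of 7.88 to 8.52, and day 8 arrays read 9.08, 9.19, 9.02 and 8.86. Day 10 arrays read 9.45, 9.45, 9.50 and 10.02, and day 11 arrays 8.66, 8.17, 8.87 and 8.33. Every day 8 array lay above every day 6 array, and every day 10 array above every day 8 array. Day 12 arrays read 7.86, 7.34, 7.34, 7.26 and 7.41, which overlapped day 6 but lay wholly above non-pregnant uterus.

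Against non-pregnant uterus Cyp11a1 rose at least 6.41-fold at day 6 (adjusted p = 9.04e-19), at least 13.8-fold at day 8 (8.18e-21) and at least 20.5-fold at day 10 (7.57e-23). It was still at least 9.56-fold higher at day 11 (3.54e-20) and at least 4.56-fold higher at day 12 (1.9e-17). The bounds hold for this background correction: without it the log2 differences were 1.41 at day 6, 2.23 at day 8, 2.71 at day 10, 1.82 at day 11 and 1.10 at day 12, all still called. In steps, day 8 was 1.11 ± 0.15 (SE) above day 6 on the log2 scale (adjusted p = 2.64e-06) and day 10 was 0.57 ± 0.17 above day 8, which passed on p (0.0168) but not on size. It then fell by 1.10 ± 0.17 at day 11 against day 10 (2.11e-05) and by 1.07 ± 0.16 at day 12 against day 11 (1.96e-05). In the order day 10, day 8, day 11, day 6, day 12, neighbours were 0.49 to 0.58 apart, each under 2-fold though past the adjusted p. The fall to day 11 was under 2-fold without day 10 replicate 4 (-0.96) or without day 11 replicate 2 (-0.99), and the fall to day 12 without day 11 replicate 3 (-0.95). The fall to day 12 was also under 2-fold without background correction (-0.72), with the authors' normalized values (-0.76) and with median scaling (-0.97).

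Promoter windows from RefSeq (GRCm38.p6), each 250 bases before an annotated start and 50 from the start on, were held for 4 of the 6 genes and are shown where the gene is described, to give the sequence around the starts of changed enzymes. The motifs searched, on both strands, were the nuclear receptor half-site AGGTCA, the TATA box with letters TATAAA, the CCAAT box, the GC box with letters GGGCGG and the steroid receptor half-site AGAACA. Matches are in capitals, with antisense matches as the reverse complement, and no matches overlapped. Cyp11a1 had 2 annotated starts.
Cyp11a1 chr9:57997774-57998073, plus strand: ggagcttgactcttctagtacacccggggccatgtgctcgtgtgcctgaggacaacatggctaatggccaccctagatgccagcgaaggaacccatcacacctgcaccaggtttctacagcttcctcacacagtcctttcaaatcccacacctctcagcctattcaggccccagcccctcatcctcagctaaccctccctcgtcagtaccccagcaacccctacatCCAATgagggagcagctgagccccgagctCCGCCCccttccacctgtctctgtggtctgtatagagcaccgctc
Cyp11a1 chr9:58014702-58015001, plus strand: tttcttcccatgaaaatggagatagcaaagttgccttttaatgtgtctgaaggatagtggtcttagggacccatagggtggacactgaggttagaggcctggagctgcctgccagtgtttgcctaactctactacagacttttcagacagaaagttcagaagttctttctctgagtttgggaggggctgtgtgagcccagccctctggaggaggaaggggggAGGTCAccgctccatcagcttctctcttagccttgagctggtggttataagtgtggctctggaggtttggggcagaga
The first window held CCAAT from base 227 and an antisense GC box from base 256, and the second held AGGTCA from base 223. AGGTCA occurred in 16.3% of all 32851 windows of this length, TATAAA in 13.6%, CCAAT in 37.4%, GGGCGG in 35.7% and AGAACA in 19%. Which start's transcripts the Cyp11a1 probe reads was not tested.

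Cyp17a1, the step from progestogens towards androgens, was detected on no array up to day 8 and on every array from day 10. Non-pregnant arrays had a lowest log2 intensity of 4.37, a median of 4.47 and a highest of 4.91. Day 4 arrays read 4.44, 4.33, 4.28 and 4.29, and day 6 arrays ran from 4.28 through a median of 4.47 to 4.96. Day 8 arrays read 4.88, 5.52, 4.66 and 4.66. These 4 groups lay at the bottom of the array's range and, apart from day 8 against day 4, overlapped. Day 10 arrays read 11.14, 11.07, 11.34 and 11.67. Day 11 arrays read 10.47, 10.45, 10.35 and 10.72, and day 12 arrays 9.55, 9.81, 9.96, 9.76 and 9.56. No array of day 10, 11 or 12 overlapped another of these groups. Before normalization its deposited intensity was 2125 to 3700 at day 10 and 99.0 to 139 in non-pregnant uterus.

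Against non-pregnant uterus Cyp17a1 rose at least 66.5-fold at day 10 (adjusted p = 5.95e-26), at least 38.0-fold at day 11 (1.14e-24) and at least 22.3-fold at day 12 (4.77e-24). Without background correction the log2 differences were 4.26, 3.50 and 2.82 at days 10, 11 and 12, all still called. Day 10 was at least 63.2-fold above day 8 (1.18e-23), the largest step between sampled days among the 6 enzymes. It was lower by 0.81 ± 0.17 at day 11 than at day 10 (adjusted p = 0.00115) and by 0.77 ± 0.16 at day 12 than at day 11 (0.0018), each under 2-fold, and over both steps it fell by 1.58 ± 0.16 (day 12 against day 10, 3.11e-09; 6.87% of all genes fell over these days). At 1.5-fold both single steps would count as changed.

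The summed level of trophoblast markers was, like Cyp17a1, far higher at day 10 than at day 8, but its median was not lower at days 11 and 12. Of 18 listed, 14 were measured, and their summed level was 328 to 529 in non-pregnant uterus, 2246 to 3546 at day 8, 45799 to 56569 at day 10, 53933 to 61952 at day 11 and 56373 to 62296 at day 12. Single markers differed in course. The giant cell hormone Prl2c2 averaged 12.92 at day 10 and 5.84 at day 8, where 3 of 4 arrays detected it. Prl2c2 and Rhox6, also on this list, were among the 3 genes most like Cyp17a1 over the 33 arrays (Pearson r 0.99 each). The syncytial gene Syna was detected on no array up to day 10 and on all from day 11, and the trophoblast protease Ctsq averaged 12.78 at day 12 and 8.02 at day 10, days between which Cyp17a1 fell. Of 11 ovary genes 2 were measured: Inha was detected on no array at day 10 and on 5 of 6 in non-pregnant uterus, and Gdf9 averaged 5.25 at day 10 and 6.06 in non-pregnant uterus. What part trophoblast or ovary cells play in the Cyp17a1 values was not tested.

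**Figure D2:**
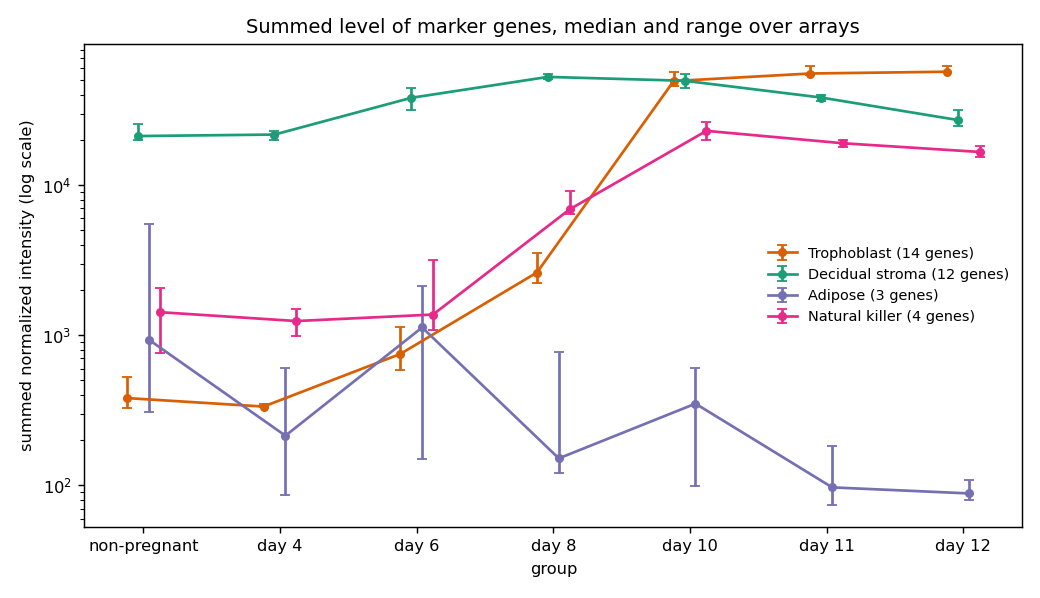
Summed normalized intensity (log scale) of marker genes by group: points are medians over arrays and bars run from the lowest to the highest array. Trophoblast genes sum to 2246 to 3546 at day 8 and 45799 to 56569 at day 10, decidual stroma genes have their highest median at day 8, and adipose genes run from 309 to 5498 within non-pregnant uterus.

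Hsd17b1, which makes the stronger oestrogen from the weaker, was high for a short time, from day 6 to day 10, and was below detection on every array at day 4 and day 12. Non-pregnant arrays had a lowest value of 4.97, a median of 5.79 and a highest of 6.15, with 4 of 6 detected, and day 4 arrays read 5.01, 4.89, 4.92 and 4.88. Day 6 arrays ran from 7.76 through 8.43 to 9.15. Day 8 arrays read 9.67, 9.44, 9.59 and 9.51, and lay above all arrays of other groups. Day 10 arrays read 7.76, 7.61, 7.30 and 7.31. Day 11 arrays read 5.22, 5.27, 5.08 and 5.87, of which 2 were detected, and day 12 arrays 4.37, 4.68, 4.51, 4.69 and 4.53. Day 12 lay wholly below non-pregnant uterus, while day 11 and day 4 overlapped it.

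Hsd17b1 rose 6.67-fold at day 6 against non-pregnant uterus (2.74 ± 0.19 log2, adjusted p = 3.67e-13), 14.1-fold at day 8 (3.82 ± 0.21, 8.78e-16) and 3.39-fold at day 10 (1.76 ± 0.21, 1.95e-08). Without background correction the rises were 1.46 at day 6 and 2.32 at day 8. At day 4 the difference of -0.81 (adjusted p = 0.0127) was not called, and with no day 4 array detected it is a bound of at least 1.5-fold lower. At day 11 the difference was -0.38 (95% interval -0.80 to 0.05). At day 12 the fitted difference of -1.18 was called as a fall (adjusted p = 5.32e-06). With no day 12 array detected, the bound is at least 1.5-fold lower, which does not settle whether the fall reached 2-fold. That call was lost without background correction (-0.32) and with the authors' normalized values (-0.40), and so was the rise at day 10 (0.79 and 0.82). Against day 4 the day 6 level was at least 9.97-fold higher (1.25e-14), and day 8 was 1.08 ± 0.21 above day 6 (0.000246), a step that was under 2-fold without day 6 replicate 2 (0.94). It fell by 2.06 ± 0.23 at day 10 against day 8 (1.91e-08) and by 2.14 ± 0.23 at day 11 against day 10 (2.74e-08). At day 12 it was at least 21.1-fold lower than at day 8 (8.27e-19), a comparison in which 10.3% of all genes fell. Non-pregnant uterus, day 11, day 4 and day 12, in that order of level, did not pass the test between neighbours.

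Ptges, the last enzyme of prostaglandin E2 synthesis, rose and fell around the same day 8 peak as Hsd17b1. Non-pregnant arrays had a lowest log2 value of 4.40 (replicate 4, not detected), a median of 5.91 and a highest of 6.19, and day 4 arrays read 6.01, 5.95, 5.97 and 6.59. Day 6 arrays ran from 7.72 through 8.00 to 8.95. Day 8 arrays read 10.13, 10.13, 9.95 and 9.94, above every array of any other group. Day 10 arrays read 8.12, 8.35, 8.28 and 8.08, and overlapped day 6. Day 11 arrays read 7.11, 6.68, 7.09 and 7.16, and day 12 arrays 6.32, 6.12, 5.78, 5.73 and 6.10. Day 12 overlapped non-pregnant uterus and day 4.

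Against non-pregnant uterus Ptges rose 5.48-fold at day 6 (2.46 ± 0.22, adjusted p = 2.3e-10), 20.9-fold at day 8 (4.38 ± 0.25, 2.53e-15), 5.86-fold at day 10 (2.55 ± 0.25, 3.91e-10) and 2.56-fold at day 11 (1.36 ± 0.25, 2.62e-05). At day 12 the difference was 0.36 (95% interval -0.12 to 0.83), and at day 4 it was 0.47 (-0.03 to 0.98). Day 8 was 1.93 ± 0.25 above day 6 (6.53e-07), and the level then fell by 1.83 ± 0.27 at day 10 (5.01e-06), by 1.19 ± 0.27 at day 11 (0.00244) and by 1.00 ± 0.26 at day 12 (0.0122), each against the day sampled before. The last step sat at the 2-fold line and was under it without day 11 replicate 1, 3 or 4 or day 12 replicate 3 or 4 (-0.97 to -0.93). Day 10 and day 6, neighbours in the order of levels, differed by 0.10 (adjusted p = 0.807). The fall at day 12 against day 11 was not called without background correction (-0.44) or with the authors' normalized values (-0.47). Nor was it called with median scaling (-0.85, adjusted p = 0.0956) or cyclic loess (-0.98). The rise at day 11 was under 2-fold without background correction (0.54) and with the authors' normalized values (0.56), while the rises at days 6, 8 and 10 without background correction were 1.22, 2.77 and 1.28 and still called.
Ptges chr2:30903248-30903547, minus strand: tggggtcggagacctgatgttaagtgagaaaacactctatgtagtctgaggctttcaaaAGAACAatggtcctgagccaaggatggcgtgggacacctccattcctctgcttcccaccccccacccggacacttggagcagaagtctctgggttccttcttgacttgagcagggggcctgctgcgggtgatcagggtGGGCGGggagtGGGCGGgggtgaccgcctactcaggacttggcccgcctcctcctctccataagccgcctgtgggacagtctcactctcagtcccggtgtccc
Its window held GGGCGG from bases 198 and 209 and AGAACA from base 60.

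The second Ptges probe, which was dimmer, followed the first (Pearson r 0.95 over 33 arrays). It was detected on no array of non-pregnant uterus or day 12, and rose at least 2.43-fold at day 6 (adjusted p = 3.58e-11, over 21107 probes), at least 9.84-fold at day 8 (2.11e-18) and at least 2.19-fold at day 10 (1.02e-09). At day 11, where 3 of 4 arrays detected it, it was at least 1.09-fold higher (0.00355), which does not settle whether it reached 2-fold. The 3 Hsd11b1 probes had r of 0.997 to 0.998 with each other.

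**Figure D3:**
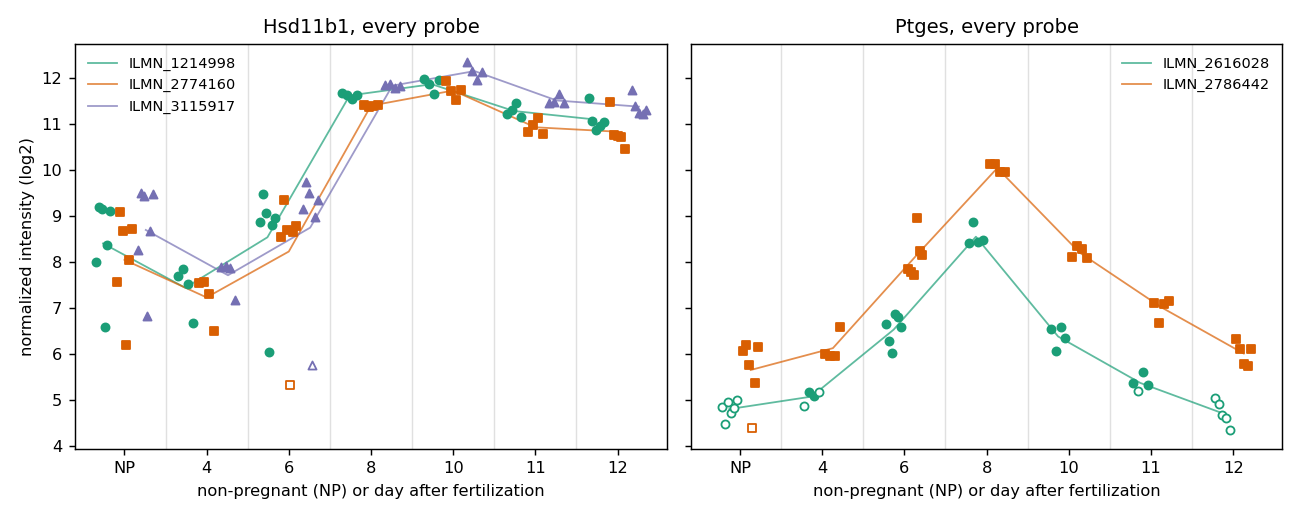
Log2 normalized intensity of every probe of Hsd11b1 (3 probes) and Ptges (2 probes) on each array, by group, with lines through group means and open symbols for arrays that did not detect the probe. Ptges is highest at day 8 on both of its probes.

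The mean log2 level of decidual stroma genes, 12 of 12 measured, was also highest at day 8. Per array it was 6.41 to 6.89 in non-pregnant uterus, 9.09 to 9.56 at day 6, 9.95 to 10.18 at day 8, 8.79 to 9.25 at day 10 and 7.68 to 7.90 at day 12. Their summed level overlapped between day 8 (51096 to 54797) and day 10 (44555 to 55370). At day 8, 9 of the 12 rose against non-pregnant uterus (10.8% of all genes rose). Hsd17b1 and Ptges had a Pearson r of 0.88 over the 33 arrays, and Cyp17a1 and Akr1c18 one of 0.90. Cyp17a1 had r of -0.30 with Hsd17b1 and -0.03 with Ptges. These correlations share the same 7 groups and libraries. Decidual genes and these enzymes were measured in the same RNA, and their part in the result was not tested.

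Hsd11b1, which reactivates glucocorticoid, was expressed in every group and moved to a high level that lasted from day 8 to day 12. Non-pregnant arrays had a lowest value of 6.82, a median of 9.05 and a highest of 9.51, and day 4 arrays read 7.90, 7.92, 7.87 and 7.17. Day 6 arrays ran from 5.76 through 9.25 to 9.73. The lowest values of non-pregnant uterus and day 6 both came from the arrays with the fewest detected probes, replicate 4 of each. Day 8 arrays read 11.85, 11.86, 11.78 and 11.82, and day 10 arrays 12.33, 12.15, 11.96 and 12.13. Day 11 arrays read 11.44, 11.48, 11.65 and 11.45, and day 12 arrays 11.72, 11.38, 11.23, 11.21 and 11.31. Every array from day 8 on lay above every earlier array.

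Hsd11b1 rose 8.77-fold at day 8 against non-pregnant uterus (3.13 ± 0.49, adjusted p = 3.65e-06), 10.9-fold at day 10 (3.45 ± 0.49, 6.24e-07), 7.02-fold at day 11 (2.81 ± 0.49, 1.33e-05) and 6.40-fold at day 12 (2.68 ± 0.46, 9.47e-06). Day 8 was 3.08 ± 0.49 above day 6 (2.11e-05). With single arrays left out, the rise ran from 2.76 to 3.29 at day 8 and from 3.07 to 3.61 at day 10. Each was lowest without non-pregnant replicate 4. The step from day 6 to day 8 ran from 2.49 to 3.28, lowest without day 6 replicate 4, and all stayed called. From day 8 on, neighbouring levels did not pass the test: the differences were 0.32 for day 10 against day 8 (95% interval -0.78 to 1.41), -0.64 for day 11 against day 10 (-1.73 to 0.46) and -0.13 for day 12 against day 11 (-1.17 to 0.91). The arrays of days 8, 10 and 11 did not overlap one another, and with only the compared groups fitted the adjusted p was 0.0364 for day 10 against day 8 and 0.00133 for day 11 against day 10, both still under 2-fold. Day 4 lay 0.98 below non-pregnant uterus, which was not called (adjusted p = 0.23). Without non-pregnant replicate 4 the day 4 difference was -1.36 and passed (0.0384). The rise at day 6 against day 4, 1.03 and not called in all arrays (0.129), was 1.63 without day 6 replicate 4 (0.000289).
Hsd11b1 chr1:193242311-193242610, minus strand: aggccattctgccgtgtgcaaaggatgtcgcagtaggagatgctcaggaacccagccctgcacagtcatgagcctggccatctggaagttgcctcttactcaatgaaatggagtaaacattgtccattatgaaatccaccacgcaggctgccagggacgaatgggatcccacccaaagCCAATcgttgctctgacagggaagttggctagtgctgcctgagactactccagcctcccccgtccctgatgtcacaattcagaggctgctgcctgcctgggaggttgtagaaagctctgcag
The window held CCAAT from base 179. Adipose tissue also expresses Hsd11b1, and 3 of 7 adipose genes were measured. Their summed level was 309 to 5498 in non-pregnant uterus, 86.8 to 606 at day 4, 150 to 2126 at day 6, 121 to 771 at day 8, 99.0 to 603 at day 10 and 79.5 to 109 at day 12. Their part in the Hsd11b1 values was not tested.

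Akr1c18, which inactivates progesterone, was near the floor early in pregnancy, intermediate at day 8 and high from day 10. Non-pregnant arrays ran from 4.26 through a median of 4.80 to 8.39 and were detected on 3 of 6. Day 4 arrays read 4.55, 5.33, 5.60 and 4.85. The non-pregnant spread (SD 1.71) came from replicate 5 at 8.39 and replicate 4 at 7.02. Day 6 arrays ran from 4.36 through 4.62 to 5.36, and day 8 arrays read 6.31, 7.59, 7.14 and 6.85. Day 10 arrays read 10.35, 10.14, 9.98 and 9.81, the highest group, with no overlap with any other. Day 11 arrays read 8.51, 8.77, 9.22 and 8.98, and day 12 arrays 8.75, 9.02, 9.14, 8.82 and 9.16. Day 8 arrays lay above all day 4 and day 6 arrays but overlapped non-pregnant uterus.

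Akr1c18 rose 22.0-fold at day 10 against non-pregnant uterus (4.46 ± 0.49, adjusted p = 5.45e-09), 9.60-fold at day 11 (3.26 ± 0.49, 1.43e-06) and 10.3-fold at day 12 (3.37 ± 0.46, 2.39e-07). Without background correction these were 2.69, 1.67 and 1.76 on the log2 scale, all still called. The rise at day 8, 2.57-fold (1.36 ± 0.49, 0.0215), lost its call without day 8 replicate 2 (0.0809), without day 8 replicate 3 (0.0509) and without non-pregnant replicate 2, 3 or 6 (0.0577 to 0.0628). It was also lost when only these groups were fitted (0.173) and, at 0.43, without background correction. Averaging near-identical arrays, among them non-pregnant replicates 2 and 3, lost the call too (1.11, 0.0654). Without non-pregnant replicate 5 the day 8 difference was 1.92 (5.77e-05). At day 6 the difference was -0.93 and not called (0.0945), but it passed without non-pregnant replicate 2, 3 or 6 (-1.20 to -1.17). Against day 6, where 1 of 6 arrays detected it, day 8 was 2.29 ± 0.49 higher (0.000933), and day 10 was 3.10 ± 0.54 above day 8 (6.2e-05). Day 11 was 1.20 ± 0.54 below day 10, which did not pass (0.143) although the arrays did not overlap. With only these days fitted the same difference passed (0.00039). So it did with array weights (-1.27, 0.00108), without background correction (-1.01, 0.00364) and with the authors' normalized values (-1.04, 0.0056). Under the other alternatives it was not called. The difference of day 12 from day 11 was 0.11 (95% interval -0.94 to 1.15).
Akr1c18 chr13:4150597-4150896, minus strand: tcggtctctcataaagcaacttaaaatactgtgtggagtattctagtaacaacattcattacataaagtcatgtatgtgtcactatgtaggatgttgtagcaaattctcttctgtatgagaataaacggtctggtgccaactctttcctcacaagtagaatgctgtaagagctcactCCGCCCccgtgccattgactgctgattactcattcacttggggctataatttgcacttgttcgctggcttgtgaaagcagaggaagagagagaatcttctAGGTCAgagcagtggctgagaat
This window held AGGTCA from base 278, which is after the start, and an antisense GC box from base 178. Akr1c18 lies in a family of closely related aldo-keto reductases, and whether its probe also reads relatives was not tested. The summed level of natural killer genes (4 of 8 measured) was, like the level of Akr1c18, highest at day 10. It was 759 to 2061 in non-pregnant uterus, 6465 to 9104 at day 8 and 20012 to 26251 at day 10. Against non-pregnant uterus 1 of the 4 genes rose at day 6 (6.53% of all genes), where the Akr1c18 mean was lowest. At day 8, 2 rose (10.8%), and at day 10, 3 rose (12.4%). The trophoblast sums given above were also far higher at day 10 than at day 8. Their medians were higher still at days 11 and 12, where the Akr1c18 means were below that of day 10. What part either set plays in the Akr1c18 values was not tested.

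**Figure D4:**
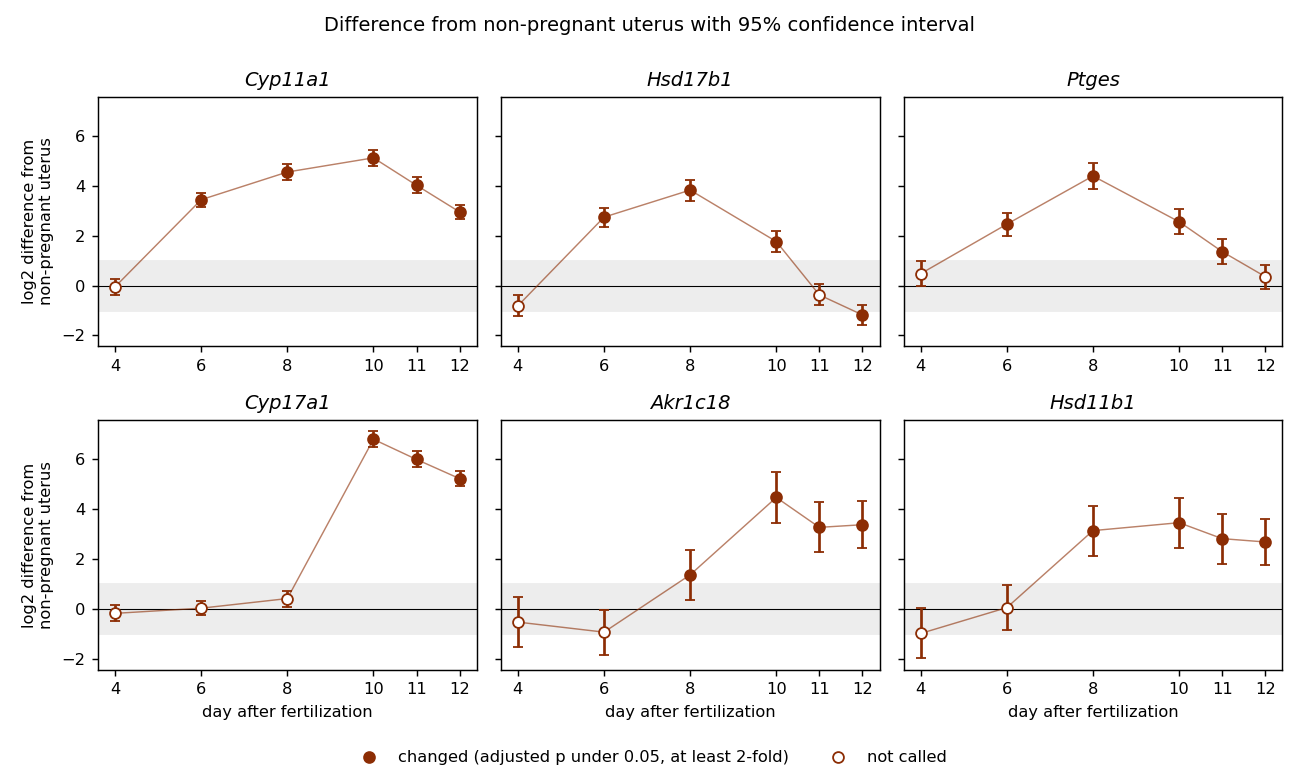
Log2 difference from non-pregnant uterus with its 95% confidence interval, by day after fertilization, for the 6 enzymes, filled where the gene changed. The grey band marks differences under 2-fold. The largest difference is at day 8 for Hsd17b1 and Ptges, and at day 10 for Cyp11a1, Cyp17a1, Akr1c18 and Hsd11b1. Day 10 and day 8 are under 2-fold apart for Cyp11a1, and for Hsd11b1 they did not pass the test. Hsd17b1 is below non-pregnant uterus at day 12, where no array detected it and the bound is at least 1.5-fold.

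Between sampled days, 3 of the 6 rose at day 6 against day 4 (5.23% of all genes rose), 5 rose at day 8 against day 6 (3.91%), 2 rose and 2 fell at day 10 against day 8 (5.18% rose and 2.44% fell), 3 fell at day 11 against day 10 (2.1%) and 2 fell at day 12 against day 11 (1.09%). The step from day 8 to day 10 divided them: Cyp17a1 and Akr1c18 rose while Hsd17b1 and Ptges fell, and Cyp11a1 and Hsd11b1 did not change by 2-fold. None rose after day 10. Without background correction the rises at day 8 against day 6 of Cyp11a1 (0.82), Hsd17b1 (0.86) and Akr1c18 (0.81) were under 2-fold, as were the falls at day 11 against day 10 of Cyp11a1 (-0.89), Hsd17b1 (-0.91) and Ptges (-0.74).

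The genes whose levels ran most like each enzyme over the 33 arrays were named by the highest Pearson r. For Cyp11a1 they were Rrm2 (0.98), Lmcd1 (0.98) and Angpt2 (0.97). For Cyp17a1 they were Prl2c2 (0.99), Esrrb (0.99) and Rhox6 (0.99), of which Prl2c2 and Rhox6 also stand on the trophoblast list. For Hsd17b1 they were Ppm1h (0.97), Phlda3 (0.95) and Cd177 (0.95). For Ptges they were Mt3 (0.97), Lman1l (0.95) and Atp10a (0.95). For Hsd11b1 they were Dcaf4 (0.93), Prex1 (0.93) and Tnfrsf11b (0.91). For Akr1c18 they were Lgals3 (0.93), Gzmg (0.93) and Prl4a1 (0.92), the last 2 also on the natural killer and trophoblast lists. The median r over all genes was -0.030 to 0.017 for the 6 enzymes.

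Of 52 other genes of steroid synthesis and breakdown, 23 were measured. Their counts changed against non-pregnant uterus were 2 risen and 0 fallen at day 4, 3 and 3 at day 6, 3 and 4 at day 8, 6 and 4 at day 10, 4 and 5 at day 11, and 4 and 6 at day 12. Their median difference was 0.12 at day 4 and between -0.25 and -0.03 from day 6 on. With bounds it was -0.16 at day 10 and -0.20 at day 11. The shares of all genes at these days are those given above.

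Cyp11b1, the last enzyme of glucocorticoid synthesis in the adrenal cortex, was like Cyp11a1 first detected at day 6, had its highest mean at day 10 and fell at day 11. It was detected on no array of non-pregnant uterus or day 4, and rose at least 1.68-fold at day 6 (adjusted p = 2.08e-08), at least 11.0-fold at day 8 (2.17e-17), at least 11.3-fold at day 10 (4.98e-18) and at least 3.00-fold at day 11 (7.28e-12). The day 6 bound does not settle whether that rise reached 2-fold. Its mean was 5.99 at day 6 and 8.71 at day 8, where that of Cyp11a1 was 7.93 and 9.04. Cyp11b1 fell by 1.91 ± 0.22 at day 11 against day 10 and by 1.83 ± 0.21 at day 12 against day 11. At day 12 Cyp11a1 was detected on all 5 arrays at a mean of 7.44, and Cyp11b1 on 2 of 5 at 5.01. Cyp21a1, the adrenal enzyme before it in the chain, was detected on no array from day 6 to day 12 and on 4 of 6 in non-pregnant uterus. It counts among the falls on each of these days, but its differences were under 2-fold without non-pregnant replicate 4 (-0.90 to -0.65). Without background correction the rises of Cyp11b1 at day 6 (0.47) and day 11 (0.82) were under 2-fold. So was its fall at day 12 against day 11 (-0.64). Cyp11b1 has a close relative, Cyp11b2, which was not analysed here, and signal shared with it was not tested.

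Among partners of Hsd17b1, the oestradiol-oxidizing Hsd17b2 was not detected on any day 8 array and rose 2.78 ± 0.67 at day 10 (adjusted p = 0.000838), 2.79 at day 11 and 2.63 at day 12 against non-pregnant uterus. At day 10 it was at least 14.3-fold above day 8 (4.41e-05), while Hsd17b1 fell over the same step. Hsd17b7, which acts in cholesterol synthesis as well as on oestrone, rose at every day, by 1.08 ± 0.25 at day 4 (0.00668), 3.53 ± 0.25 at day 10 (4.63e-13) and 3.80 ± 0.24 at day 12 (9.77e-15). Its day 4 rise was under 2-fold without non-pregnant replicate 6 (0.97), without day 4 replicate 2 (0.95), 3 or 4 (0.87), and without background correction (0.79). Of the partners of Hsd11b1, the reverse enzyme Hsd11b2 rose by 1.59 ± 0.45 at day 4 (0.0243) and differed by under 2-fold on later days. That rise missed the adjusted p without non-pregnant replicate 1 or 5 and without day 4 replicate 2, 3 or 4 (0.0531 to 0.075). H6pd, which supplies its cofactor, differed by at most 0.55 in size at any day.

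The cholesterol carrier Stard4 rose at day 6 (1.25 ± 0.24, adjusted p = 8.49e-05), day 10, day 11 (1.36 ± 0.26) and day 12. The sterol sulfotransferase Sult2b1 rose at day 8 (1.16) and day 10 (1.42). The falls were led by Akr1c19, a relative of Akr1c18, at -2.56 ± 0.29 at day 6 (2.71e-08) and -3.43 ± 0.33 at day 10 (2.34e-10). The hydroxylase Cyp7b1 fell by 2.51 ± 0.21 at day 11 (1.14e-11) and Hsd17b11 by 1.89 ± 0.35 at day 8 (4.07e-05). Rdh5 fell by 1.31 ± 0.16 at day 11. Without background correction Stard4 (0.71 to 0.81), Sult2b1 (0.34 and 0.44) and Rdh5 (-0.61) were under 2-fold on these days. The regulator Nr5a2 stayed near the floor, at group means of 4.86 to 5.44. Star, Hsd3b1, Hsd3b6, Cyp19a1, Fdx1, Srd5a1 and Akr1c14 were not analysed here.

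Of 36 other prostaglandin genes, 20 were measured, and the counts were 2 risen and 0 fallen at day 4, 0 and 2 at day 6, 1 and 5 at day 8, 2 and 5 at day 10, 2 and 5 at day 11, and 0 and 6 at day 12. Their median difference was 0.18 at day 4, -0.21 at day 6, -0.27 at day 8, -0.75 at day 10, -0.59 at day 11 and -0.43 at day 12. With bounds it was -0.06 at day 8 and -0.45 at day 10. Over all genes, 1.42% rose and 1.23% fell at day 4, 6.53% and 6.31% at day 6, and 10.8% and 11.2% at day 8. The shares risen and fallen were 12.4% and 11.8% at day 10, 13.8% and 13.5% at day 11, and 14.1% and 14% at day 12. The uptake carrier Slco2a1 rose at day 4 (1.27 ± 0.37, adjusted p = 0.0302), day 8 (2.88 ± 0.37, 1.67e-07), day 10 (2.42 ± 0.37) and day 11 (1.60 ± 0.37), and like Ptges it had its highest mean at day 8. Its day 4 rise missed the adjusted p without non-pregnant replicate 1 or 5 and without day 4 replicate 2, 3 or 4 (0.0784 to 0.112). Ptgds, a prostaglandin D synthase, was detected on no array up to day 8 and rose at least 2.91-fold at day 10 (9.71e-12) and at least 2.59-fold at day 11 (4.37e-11), differences that were under 2-fold without background correction (0.77 and 0.68). The phospholipase Pla2g10 rose at day 4 (2.93 ± 0.68, 0.00611), where 3 of 4 arrays detected it.

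The prostaglandin-degrading Hpgd, which starts the inactivation of prostaglandin E2, fell by 2.00 ± 0.35 at day 8 (adjusted p = 2.05e-05) and by 1.42 ± 0.33 at day 12 (0.000452). At day 6 it fell by 1.44 ± 0.31 (0.000483), but without day 6 replicate 4, which did not detect it, the difference was -0.96 and under 2-fold. Without background correction the day 6 and day 12 differences were -0.84 and -0.93, under 2-fold. The prostacyclin synthase Ptgis fell by 1.53 ± 0.24 at day 8 (5.21e-06) and by 2.04 ± 0.24 at day 11 (2.26e-08). The carbonyl reductases Cbr2 and Cbr3 fell too, at day 12 by 6.86 ± 0.67 (2.94e-10) and by 3.00 ± 0.28 (7.16e-11). The other prostaglandin E synthase measured, Ptges2, averaged 6.68 at day 8 and 5.76 in non-pregnant uterus, a difference of 0.92 under 2-fold. Ptgs1, Ptgs2, Pla2g4a, Ptges3, Ptgfr, Ptger2 and Ptger4 were not analysed here.

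**Figure D5:**
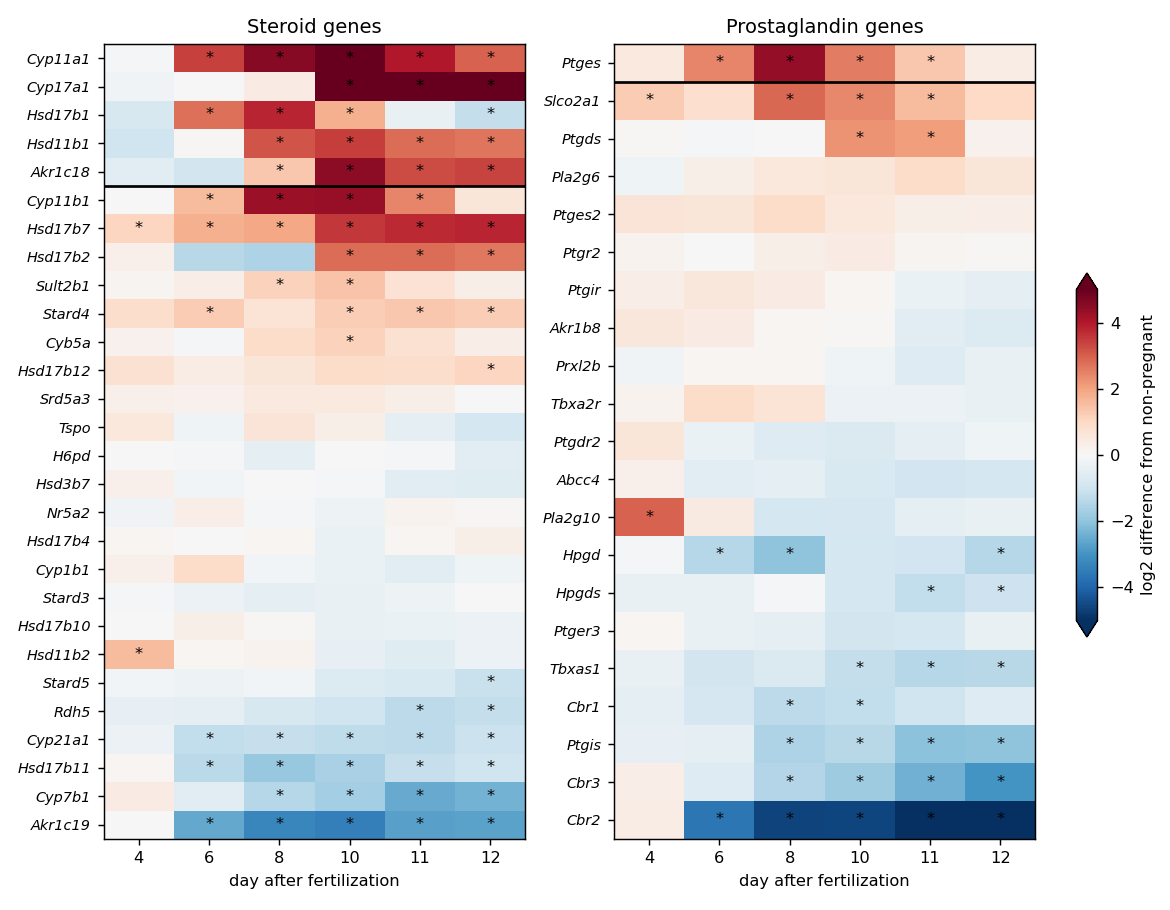
Log2 difference from non-pregnant uterus (colour, red higher and blue lower, saturating at 5 in either direction) by day for the 6 enzymes, above the black lines, and the other measured genes of their pathways, sorted by the day 10 difference. Stars mark changed genes. Cyp11b1, like Cyp11a1, has its largest difference at day 10, and Cbr2 and Akr1c19 are the strongest falls of their lists at day 10.

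Receptors of the hormones these enzymes handle also changed. The progesterone receptor Pgr rose by 1.44 ± 0.20 at day 4 (adjusted p = 5.13e-05) and by 1.24 ± 0.20 at day 8 (8.02e-06), and at day 12 it was 0.68 lower, under 2-fold. The oestrogen receptor Esr1 fell by 1.19 ± 0.35 at day 10 (0.00535), by 1.42 ± 0.35 at day 11 (0.00105) and by 2.19 ± 0.33 at day 12 (1.35e-06). The day 10 fall of Esr1 was under 2-fold without non-pregnant replicate 4 (-0.95). Without background correction the rises of Pgr (0.78 and 0.64) and the falls of Esr1 at days 10 and 11 (-0.84 and -0.97) were under 2-fold.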

How the data were processed

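Trizol extraction, an RNeasy clean-up and MessageAmp labelling of cRNA with biotin preceded hybridisation, per the labels' protocols. The authors deposited bead intensities that were not normalized and, per the file headers, a detection p-value for each of 45281 probes on each of 33 arrays. Scanner software is not given in the sources used here. A second table deposited by the authors holds log2 values of 16712 probes, which from the values are quantile normalized, and it served as an alternative.

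Background was corrected with limma's nec (offset 16, control spread inferred from the detection p-values) and arrays were quantile normalized. Probes detected on at least 4 arrays were kept (21107), and 15195 of these carried 1 symbol. The probe with the highest mean stands for a gene, which left 10412 genes. One limma fit (lmFit, eBayes) with a mean per group gave every difference and p-value, adjusted by Benjamini-Hochberg over all genes in each comparison. R 4.3.3, limma 3.58.1, Python 3.11.15, pandas 2.3.3 and matplotlib 3.10.9 were used, and the fit was tested on simulated data.

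Named genes were the 6 members with all probes, landmark genes of both pathways, the 3 list genes with the largest rise and fall against non-pregnant uterus, the 3 genes most like each member, and receptors. The members and lists were chosen with earlier results of these data known. Alternatives covered background correction, scaling, probe filters, probe choice, samples in the fit, array weights, the variance prior, fold minimum, replicate block, dim or near-identical arrays, and each array left out.

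By the median, arrays with the same replicate number deviated together little more than others did. The median correlation of deviations from group means was 0.011 over 88 same-number pairs and 0.0040 over 376 other pairs. Correlations above 0.1 made up 21.6% of the same-number pairs and 16.0% of the others. Replicate numbers of the intensity table are used. The other table gives the same number for 17 of 33 arrays, each matched within its group.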

Additional observations from a re-analysis of the deposited data

Results flagged for a closer look

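In 7 of 42 sets of arrays (1 enzyme in 1 group of 4 to 6 arrays), 1 array stood far from the rest by Dixon's criterion, which chance alone meets in about 1 in 20 sets. Values are log2 normalized intensities. Cyp11a1 was 10.02 in day 10 replicate 4, against 9.45 to 9.50 in the other arrays of that day, and 7.86 in day 12 replicate 1, against 7.26 to 7.41. Cyp17a1 was 4.91 in non-pregnant replicate 4, against 4.37 to 4.51, all below detection. Hsd11b1 was 7.17 in day 4 replicate 4, against 7.87 to 7.92, and 5.76 in day 6 replicate 4, against 8.97 to 9.73. Ptges was 6.59 in day 4 replicate 4, against 5.95 to 6.01, and 6.68 in day 11 replicate 2, against 7.09 to 7.16. Non-pregnant replicate 4 and day 6 replicate 4 are the 2 arrays with the fewest detected probes (13097 and 13149), and the part of this in their values was not tested.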

How the results depend on the processing

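Of the 66 member differences under 15 alternatives other than leaving out an array, 929 kept direction and call, 6 changed sign but were called in neither setting, 13 gained a call, 42 lost one and 0 reversed a called direction. With each array left out in turn, 617 kept both, 12 changed sign uncalled, 5 gained and 14 lost a call. The number of members changed moved by over 1.5 times in 4 comparisons. At day 4 against non-pregnant uterus it was 0, and 1 with array weights, at 1.5-fold and without both dim arrays (0 to 1 with an array left out). At day 8 against day 6 it was 5, and 2 at 4-fold, without background correction and with the authors' normalized values. At day 11 against day 10 it was 3, and 1 under those same settings. At day 12 against day 11 it was 2, then 4 at 1.5-fold, 1 with cyclic loess, and 0 at 4-fold, with median scaling, without background correction and with the authors' normalized values (0 to 2 with an array left out, 0 without day 11 replicate 3). The replicate block changed no count of members (6 at day 10 against non-pregnant uterus), and 12 of 33 arrays deviated most like one of their own number. Same-number pairs were 88 and other pairs 376, and the count expected by chance was not worked out. Median scaling moved the median of all genes by 0.14 at day 4 against non-pregnant uterus and by -0.17 at day 6 against day 4. Leaving out arrays, and omitting background correction, was added for named pathway genes and receptors after seeing the data. Genes changed at day 10 against non-pregnant uterus numbered 2514, and 1159 without background correction, 1232 with the authors' values, 4445 with every probe, 4414 at 1.5-fold and 759 at 4-fold, and other comparisons moved likewise. At day 4 against non-pregnant uterus they numbered 276, and 8 with only these groups fitted, 649 with array weights, 439 without both dim arrays, 176 with median scaling and 173 with near-identical arrays averaged. The near-identical arrays are replicates 2 and 3 of non-pregnant uterus and of day 4. Whether each pair reads separate samples was not tested, and the main fit counts them as separate. The causes of these shifts were not tested. Signal near the floor limits Cyp11a1 and Cyp17a1 before they appear, and Hsd17b1 and Akr1c18 in their low groups.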
